A study of Mus musculus with 9 samples.

Results

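The guidance genes described here are the ephrins and their Eph receptors, the Slits and their Robo receptors, and the netrins and netrin-G proteins with the netrin receptors Dcc, neogenin (Neo1) and Unc5a to Unc5d. They were taken from the count table by gene symbol alone, with no measured value, and are 41 of the 56980 genes listed. The members are 5 ephrin-A ligands, 3 ephrin-B ligands, 9 EphA receptors, 5 EphB receptors, 3 Slits, 4 Robos, 6 netrins or netrin-Gs and 6 netrin receptors.

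RNA was sequenced from cultured mouse oligodendrocyte progenitor cells (OPCs), the dividing precursors of the myelin-forming cells of the central nervous system, in 9 libraries. The groups were p53n (Trp53 -/- OPCs), BB-p53n DMSO (Trp53 -/- OPCs that express PDGF-BB, given the solvent DMSO) and BB-p53n EZH2i (the PDGF-BB cells with 5 µM tazemetostat, an inhibitor of the histone methyltransferase EZH2, for 48 hours), with 3 libraries each. The cells of all 3 groups lacked p53 and grew in SATO medium with PDGF-AA at 10 ng/mL, so no group had intact p53 or was free of a PDGF ligand. DMSO was given to PDGF-BB cells only, so in the comparison of BB-p53n DMSO with p53n the ligand and the solvent cannot be told apart. The labels describe neither the construct that carries PDGF-BB nor how many lines or clones there were. Nothing in them says that the 3 libraries of one group were grown separately, and the p-values then measure a spread that may be technical.

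Ephrins are membrane-bound ligands: ephrin-As are held by a lipid anchor and bind mainly EphA receptor tyrosine kinases, ephrin-Bs span the membrane and bind mainly EphBs, and contact usually makes cells repel or sort from each other. Slits are large secreted proteins that repel growing axons and migrating cells through Robo receptors. Netrins are laminin-related secreted proteins that attract through Dcc and neogenin and repel through Unc5 receptors, and netrin-1 is a known guide of OPCs leaving their birthplace in the developing spinal cord and optic nerve.

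The promoters of 4 members are shown first. They are the stretches just upstream of the members with the largest changes: Epha3 and Efna5, which fell and rose most with PDGF-BB among members with a level of at least 1 on the log2 CPM scale, and Ephb6 and Epha8, which had the highest log2 changes with EZH2 inhibition, Epha8 from counts near 0. Each is the 250 bases before the start of the gene, 5′ to 3′ on the gene's strand, from RefSeq on GRCm38.p6, with every CpG dinucleotide in capitals. CpG-rich promoters are the sites where Polycomb complexes, which contain EZH2, are known to bind in mammals. Binding and histone methylation were not analysed here.
Epha3, chr16:63864176-63864425, minus strand: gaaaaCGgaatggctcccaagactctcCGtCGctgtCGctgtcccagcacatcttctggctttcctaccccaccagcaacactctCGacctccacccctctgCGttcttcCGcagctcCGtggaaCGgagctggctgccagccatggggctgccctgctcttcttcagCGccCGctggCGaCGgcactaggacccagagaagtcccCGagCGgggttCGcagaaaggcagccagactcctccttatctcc
Efna5, chr17:62881318-62881567, minus strand: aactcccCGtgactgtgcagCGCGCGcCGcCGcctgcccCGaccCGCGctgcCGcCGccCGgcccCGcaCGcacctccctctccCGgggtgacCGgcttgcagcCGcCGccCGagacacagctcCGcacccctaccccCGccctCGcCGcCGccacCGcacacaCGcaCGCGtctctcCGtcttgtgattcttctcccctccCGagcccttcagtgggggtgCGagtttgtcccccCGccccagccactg
Ephb6, chr6:41605261-41605510, plus strand: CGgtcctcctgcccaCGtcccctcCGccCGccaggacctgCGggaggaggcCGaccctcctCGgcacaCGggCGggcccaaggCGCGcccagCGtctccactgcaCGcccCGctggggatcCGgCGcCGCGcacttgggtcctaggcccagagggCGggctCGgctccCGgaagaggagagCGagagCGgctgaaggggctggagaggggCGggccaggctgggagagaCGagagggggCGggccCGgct
Epha8, chr4:136956817-136957066, minus strand: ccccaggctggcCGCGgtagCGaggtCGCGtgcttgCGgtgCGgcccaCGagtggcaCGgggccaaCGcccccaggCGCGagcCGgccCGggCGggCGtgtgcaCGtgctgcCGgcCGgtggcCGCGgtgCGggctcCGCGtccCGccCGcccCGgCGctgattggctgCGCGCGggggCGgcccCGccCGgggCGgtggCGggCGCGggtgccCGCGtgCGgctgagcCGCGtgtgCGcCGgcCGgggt

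These stretches hold 16 CpGs in Epha3, 32 in Efna5, 27 in Ephb6 and 46 in Epha8, and their GC content is 62.8%, 74.8%, 76.8% and 84%. The GC box GGGCGG, searched on both strands with overlapping matches counted, occurs 0 times in Epha3, 4 times in Efna5, 5 times in Ephb6 and 6 times in Epha8. RefSeq windows of 300 bases (250 before and 50 after the start) were given for 36 of the 41 members. Taking each gene's most CpG-rich window, 33 of these 36 held at least 10 CpGs (91.7%), with a median of 22. Among 11299 tested genes with a window the share was 84.8% and the median also 22. A GC box lay in 69.4% of the members' windows, in 66.6% of those of the tested genes and in 37.3% of those of all 27025 genes in the table.

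The libraries held 19471768 to 34557109 counts, of which mitochondrial genes took 1.34% to 5.76% and the members together 0.0989% to 0.143%. Trp53, whose deleted exons the labels do not name, received 165 to 483 counts per library, so total counts of the gene do not check the deletion. Pdgfb received 0 to 1 counts in p53n libraries, 4 to 8 in DMSO and 3 to 6 in EZH2i. With the construct not described, these few counts do not check the PDGF-BB label. The 9 OPC markers looked for were all above 1 CPM (counts relative to the TMM-scaled library size) in each group, although Sox10, a regulator of the oligodendrocyte lineage, was at 1.87 to 2.40 CPM in p53n and 284 to 317 CPM in BB-p53n DMSO. Markers of microglia, endothelium and mural cells summed to at most 22.1 CPM in any library for each type. The 4 Schwann cell markers, most of them Prx counts, summed to 5.85 to 6.12 CPM in p53n, 15.5 to 16.4 in DMSO and 21.8 to 29 in EZH2i. Markers of differentiating oligodendrocytes, summed over 9 genes, were at 3673 to 3764 CPM in p53n, 566 to 634 in BB-p53n DMSO and 627 to 667 in BB-p53n EZH2i. Summed astrocyte markers were at 1630 to 1800, 1089 to 1113 and 1143 to 1278 CPM, and neuronal markers, most of them Map2 counts, at 2026 to 2056, 1661 to 1812 and 560 to 685 CPM. All astrocyte markers had lower means in DMSO than in p53n, such as Gfap (13.3 to 1.01) and Gja1 (8.32 to 0.182). Neuronal markers were mixed from DMSO to EZH2i. Means of Map2, Dcx, Syt1, Snap25 and Gad1 went down. Those of Tubb3 (37.1 to 85.4), Rbfox3 (1.33 to 6.17), Stmn2 and Slc17a7 went up, the last 2 below 1 CPM. The part of these shifts in the results below was not tested, and in bulk RNA fewer cells of a type cannot be told apart from less RNA per cell.

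Of the 41 members 38 were tested. Robo3, Robo4 and Ntn5 received at most 7, 6 and 6 counts in any library and were below the level needed in all 9. Of the tested members 3 passed this filter through some groups only: Epha10 reached it in 3 p53n libraries but 2 of each PDGF-BB group, Epha1 in 1 p53n library and all 6 PDGF-BB libraries, and Epha8 in 0 p53n, 1 DMSO and 3 EZH2i libraries. All adjusted p-values are from edgeR's quasi-likelihood test with Benjamini-Hochberg adjustment over the 17001 genes tested, and a gene is said to rise or fall where this is below 0.05.

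With PDGF-BB, the guidance genes split between gain and loss. In BB-p53n DMSO against p53n 28 of 38 tested members changed, 13 upward and 15 downward. Of all genes tested 69.3% changed, 35.3% upward and 34% downward, so the share of members that changed was near the background. The libraries of both groups did not overlap for 30 members, against 76.1% of all genes. The median log2 change was 0.04 over the members and -0.02 over all genes, while single members ranged from -4.34 to 2.99. Of the members 8 rose at least 2-fold and 8 fell at least 2-fold, against 12.7% and 17.1% of all genes. Of 22 tested receptors 9 rose and 9 fell, and of 16 tested ligands 4 rose and 6 fell. Upper quartile scaling moved all changes of this comparison by a median of -0.15, which left 12 members higher and 17 lower.

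With EZH2 inhibition, 33 of the 38 changed in BB-p53n EZH2i against BB-p53n DMSO, 19 upward and 14 downward, where 72.9% of all genes changed, 37.3% upward and 35.6% downward. The groups did not overlap for 34 members, against 75.3% of all genes. This comparison shares the DMSO libraries with the first, so both sets of values are given side by side and not correlated. The change followed the make-up of the transcript closely. Across the 38 members, Spearman's rho between the log2 change and GC content was 0.87, and with exon length it was -0.71. Over 16652 tested genes with a GC value the same figures were 0.67 and -0.28. These are descriptions across genes of the same libraries, and members of the same class are related genes. Among the 38, GC content ran from 40.1% (Epha5) to 62.7% (Unc5a). In the PDGF-BB comparison the members' values were -0.02 and -0.12.

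A second value is therefore given for each member with the trend of each library's log2 CPM on GC content and exon length removed. Under it 18 of the 38 changed with EZH2 inhibition, 12 upward and 6 downward, against 57.4% of all genes, 28.3% upward and 29.2% downward. Of the 33 calls 12 remained in the same direction (36.4%), 4 turned, 17 were lost, and 2 were gained. Over all genes 7010 of 12397 calls remained in the same direction (56.5%), 1174 turned and 4213 were lost. Among the 19 members at or above the median GC content of 55.3%, 17 rose and 0 fell as counted, and 7 rose and 0 fell with the trend removed. Among the 19 below it 2 rose and 14 fell as counted, and 5 rose and 6 fell with the trend removed. Whether the trend belongs to the cells or to the preparation of the libraries was not tested. In the PDGF-BB comparison removing it moved the median of all genes from -0.02 to -0.12. Of the members' 28 calls 26 remained (92.9%), with Epha8 and Unc5a lost, against 91.1% of the calls over all genes.

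**Figure D1:**
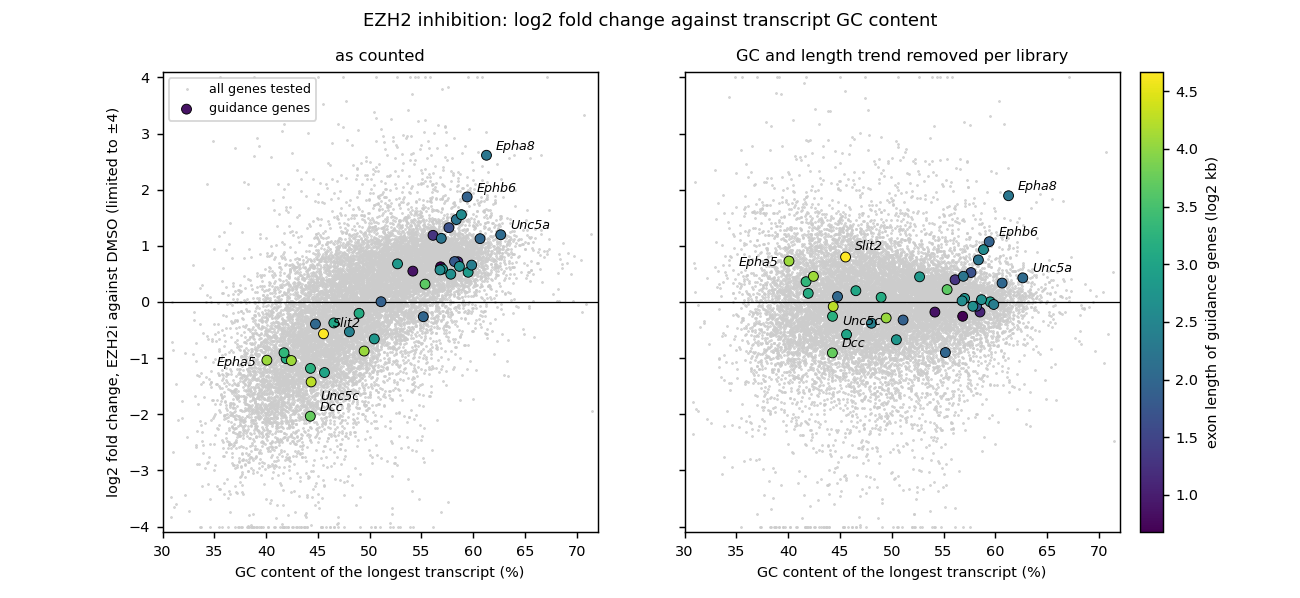
Log2 fold change of BB-p53n EZH2i against BB-p53n DMSO (y axis, limited to ±4) against transcript GC content in percent (x axis), as counted on the left and after removal of the GC and length trend on the right. Grey points are all genes tested and coloured points the 38 guidance genes, coloured by exon length; the guidance genes climb with GC on the left and lie around 0 on the right, with Epha8 and Ephb6 still high and Dcc still low.

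Among the ephrin-A ligands, PDGF-BB was accompanied by a gain of Efna5. Efna5 (ephrin-A5, on chromosome 17 at 62911179 to 63188312 in GRCm39), known as a repellent that sets topographic maps of axons, was at 1.87, 2.41 and 1.89 CPM in the p53n libraries, 15.4, 16.8 and 16.7 in DMSO and 12.2, 13.1 and 12 in EZH2i. All PDGF-BB libraries were above all p53n libraries, and the DMSO group did not overlap the EZH2i group. The rise was 2.99 ± 0.14 on the log2 scale (SE, adjusted p = 1e-13), a ratio of means of 7.91. With EZH2 inhibition it fell by 0.39 ± 0.11 (adjusted p = 0.004), a fall that was absent with the trend removed (0.10, adjusted p = 0.479). Ephrin-A5 was the single member of its class that rose with PDGF-BB: Efna4 fell by 0.57, and Efna1, Efna2 and Efna3 had changes of -0.39, 0.03 and 0.26 that did not pass.

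The other ephrin-As rose with the inhibitor as counted. Efna3, a glycolipid-anchored ligand like the rest of its class, was at 2.88, 1.91 and 1.85 CPM in p53n, 2.72, 2.81 and 2.5 in DMSO and 5.79, 6.66 and 5.90 in EZH2i. The EZH2i libraries lay above all others, while p53n and DMSO overlapped. The rise was 1.19 ± 0.18 (adjusted p = 7.6e-06) as counted and 0.40 (adjusted p = 0.0618) with the trend removed. Efna3 shares 14.1% of its exon bases with another gene, and no strand was used in counting, so some of its counts may belong there. Without p53n library 1 its PDGF-BB change was 0.59 (adjusted p = 0.0243). Efna1, Efna2 and Efna4 rose by 0.55, 0.72 and 0.63 with the inhibitor, and had values of -0.18, -0.18 and -0.25 with the trend removed, so of the class 5 of 5 changed as counted and 0 of 5 with the trend removed. Efna1, Efna3 and Efna4 are neighbours on chromosome 3, between 89179040 and 89245335.

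**Figure D2:**
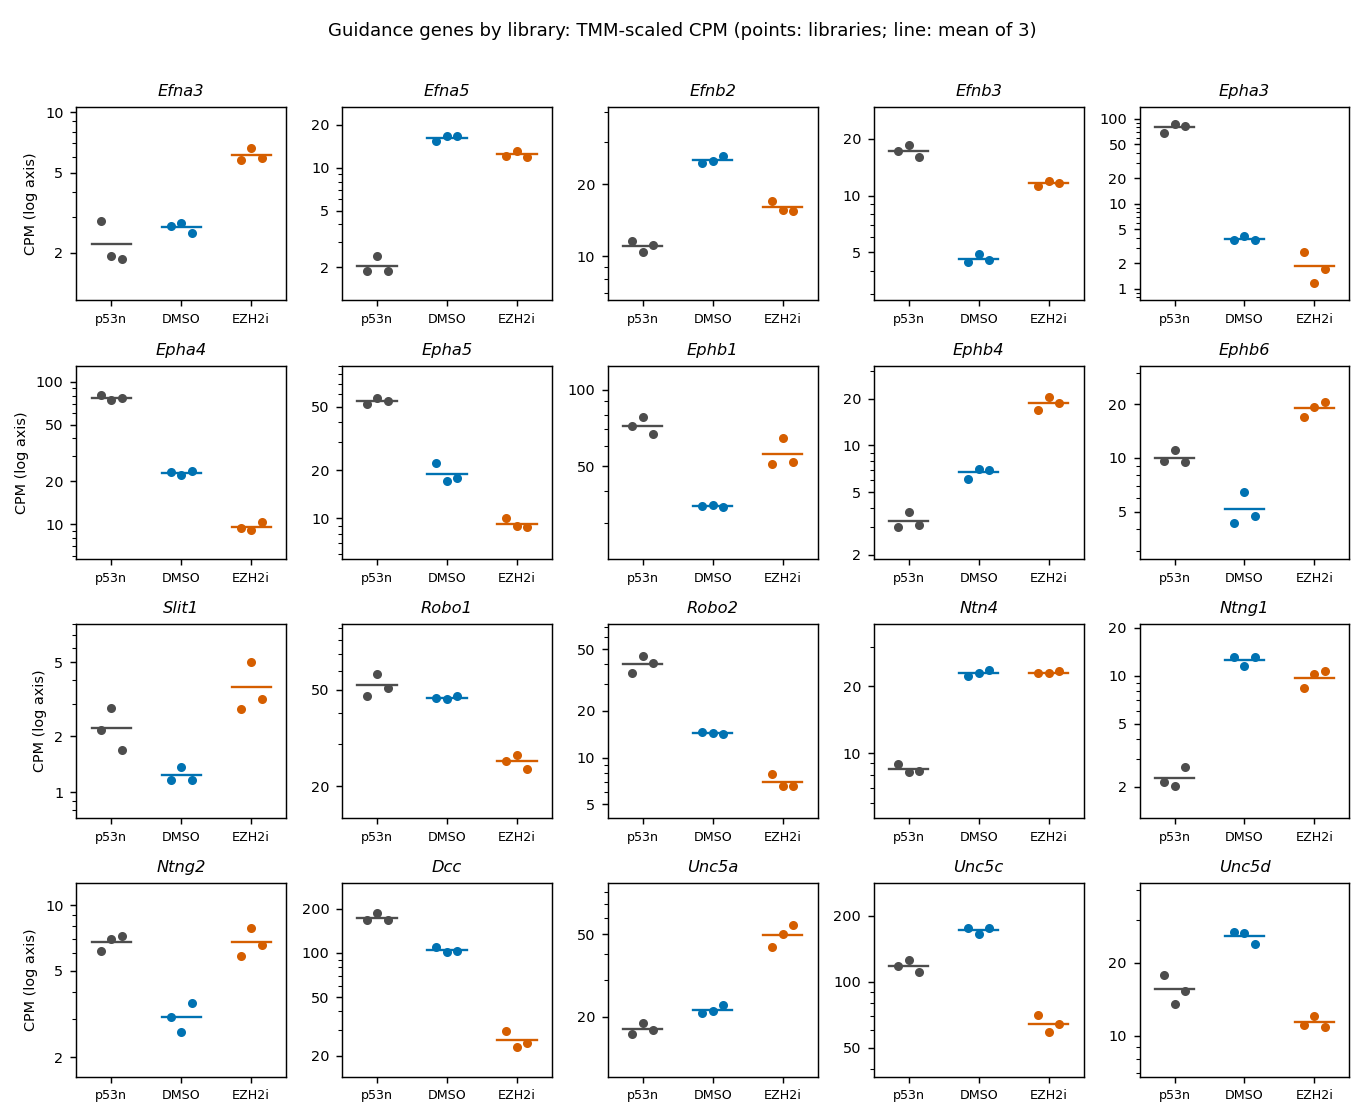
TMM-scaled CPM (log axis) of the 20 guidance genes with a called change of at least 2-fold and an average log2 CPM of at least 1, for the 3 libraries of p53n, BB-p53n DMSO (labelled DMSO) and BB-p53n EZH2i (labelled EZH2i); points are libraries and lines the means. Epha3 drops from 67.7 to 86.3 CPM in p53n to at most 4.14 in the other groups, Efna5, Ntng1 and Ntn4 step up with PDGF-BB, and Dcc is lowest in the EZH2i libraries.

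Of the 3 ephrin-B ligands, Efnb2 rose and Efnb1 and Efnb3 fell with PDGF-BB. Efnb2 (ephrin-B2, chromosome 8, 8667434 to 8711242), a partner of Ephb4 in vessel formation, was at 11.6, 10.4 and 11.1 CPM in p53n, 24.6, 25 and 26.4 in DMSO and 17.1, 15.7 and 15.4 in EZH2i. The 3 groups did not overlap, DMSO being highest and p53n lowest. Efnb2 rose by 1.19 ± 0.10 with PDGF-BB (adjusted p = 8.3e-10) and fell by 0.66 ± 0.10 with the inhibitor (adjusted p = 3.1e-06), and the fall was the same size with the trend removed (-0.67). Efnb2 and Efnb3 were the 2 ephrin-Bs whose inhibitor call remained under that setting.

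Efnb3 (ephrin-B3, chromosome 11, 69444918 to 69451031), known as a midline barrier to corticospinal axons and as an inhibitor in myelin, moved the other way. Its libraries were at 17.2, 18.4 and 16.0 CPM in p53n, 4.45, 4.91 and 4.53 in DMSO and 11.3, 11.9 and 11.7 in EZH2i, with no overlap between groups. With PDGF-BB it fell by 1.89 ± 0.12 on the log2 scale (adjusted p = 9.2e-12), and with the inhibitor it rose by 1.32 ± 0.12 (adjusted p = 4.3e-09), or 0.52 with the trend removed. Efnb3 lies 20.2 kb from Trp53, the gene deleted in all groups. With PDGF-BB the median log2 change of chromosome 11 genes was 0.42 above that of the other autosomes. Whether position has a part in the fall of Efnb3 was not tested. Efnb1, on chromosome X, fell by 0.32 and rose by 0.72, or -0.07 with the trend removed.

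The EphA receptors lost most of their RNA with PDGF-BB. Of the 9 members 4 fell (Epha3, Epha4, Epha5 and Epha10), 4 rose (Epha1, Epha2, Epha7 and Epha8) and Epha6 did not pass at 0.75 ± 0.36. Epha1 and Epha8 passed the filter mainly through PDGF-BB libraries, where they are high, so their rises are descriptions. Epha1 had 25 counts over the p53n libraries together. Epha3, Epha4 and Epha5 had the highest levels per length of the class in p53n. Summed per exon length, EphA RNA went from 23.5 ± 0.98 CPM per kb (SD, n = 3) in p53n to 6.33 ± 0.33 in DMSO and 4.08 ± 0.59 in EZH2i, with no overlap between groups.

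Epha3 (chromosome 16, 63363897 to 63684538), a receptor for ephrin-A5 and other ephrin-As, had the largest change of any member. Its libraries were at 67.7, 86.3 and 82.7 CPM in p53n, 3.79, 4.14 and 3.76 in DMSO and 2.74, 1.17 and 1.71 in EZH2i. The p53n libraries stood far above the other 6. With PDGF-BB it fell by 4.34 ± 0.15 on the log2 scale (adjusted p = 2e-13), and its mean was 20.2 times lower in DMSO than in p53n. A further fall of 1.01 ± 0.21 with the inhibitor (adjusted p = 0.00045) was not seen with the trend removed (0.15, adjusted p = 0.505). In p53n Epha3 supplied 38.5% of the summed per-length EphA level.

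Epha4, which binds ephrins of both classes and is known in axon repulsion and in glia, was at 81.3, 74.8 and 76.4 CPM in p53n, 23.3, 22.1 and 23.5 in DMSO and 9.43, 9.05 and 10.3 in EZH2i. The groups descended in that order without overlap. It fell by 1.76 ± 0.08 with PDGF-BB (adjusted p = 7.4e-14) and by 1.26 ± 0.09 with the inhibitor (adjusted p = 1.6e-10), the latter 0.58 with the trend removed and still called. Epha4 had the highest mean level per length of the EphAs in every group, at 41.0%, 45.1% and 29.6% of the class sum. In p53n its libraries (9.28 to 10.1 CPM per kb) overlapped those of Epha3 (7.79 to 9.93), so their order there is open.

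Epha5, a brain receptor for ephrin-As, was at 52.0, 56.8 and 54.3 CPM in p53n, 22.2, 17.1 and 17.8 in DMSO and 9.99, 8.89 and 8.85 in EZH2i. As counted it fell by 1.51 ± 0.10 with PDGF-BB (adjusted p = 2.4e-11) and by 1.04 ± 0.11 with the inhibitor (adjusted p = 4.2e-08). The second value turned to 0.73 (adjusted p = 1.6e-06) with the trend removed, so the direction of Epha5 under EZH2 inhibition depended on that step. Its transcript had the lowest GC content of the members (40.1%) and 16.7 kb of exons. Epha7 likewise turned, from -0.90 to 0.36.

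The EphAs that rose with PDGF-BB, apart from Epha7, were at most at 0.541 CPM in p53n. Epha8 (chromosome 4, 136656730 to 136684127) had 2, 3 and 5 counts in the p53n libraries, 11, 10 and 15 in DMSO and 74, 36 and 38 in EZH2i, or 0.0694 to 0.21 CPM, 0.296 to 0.463 CPM and 1.81 to 2.93 CPM. All EZH2i libraries were above all others. Without the EZH2i libraries, the group where it is high, it would not have passed the filter, so its log2 change with the inhibitor (2.61 as counted, 1.89 with the trend removed) is a description. Its log2 change with PDGF-BB, 1.43 ± 0.55, rested on 10 counts in p53n and was not called with the trend removed. Epha2, an EphA often abundant in tumours, was at 0.421 to 0.541, 1.23 to 1.75 and 1.97 to 4.76 CPM, with rises of 1.57 and 1.13, the second of 0.46 and not called with the trend removed. Epha10, an Eph protein without kinase activity, was at 3.61 to 4.42 CPM in p53n and at most 0.666 CPM elsewhere. It fell by 3.45 ± 0.31 with PDGF-BB.

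The EphB receptors rose together with the inhibitor. All 5 rose as counted, where 37.3% of all genes rose. With the trend removed 4 of the 5 rose, where 28.3% of all genes did, with Ephb3 (0.06) the exception. GC content of the EphBs was 52.7% to 59.4%, and as counted 17 of the 19 members at or above the median GC content rose. Summed per length they stood at 29.8 ± 1.9 CPM per kb in p53n, 24.6 ± 1.0 in DMSO and 40.2 ± 2.6 in EZH2i (SD, n = 3). With PDGF-BB 2 rose (Ephb3, Ephb4) and 3 fell (Ephb1, Ephb2, Ephb6).

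Ephb6 (chromosome 6, 41582416 to 41597443), a member with an inactive kinase, was at 9.65, 11 and 9.47 CPM in p53n, 4.33, 6.45 and 4.72 in DMSO and 17.0, 19.2 and 20.6 in EZH2i. DMSO was lowest and EZH2i highest, without overlap. It fell by 0.96 ± 0.15 with PDGF-BB (adjusted p = 7e-06) and rose by 1.87 ± 0.14 with the inhibitor (adjusted p = 3.7e-10), or 1.07 with the trend removed (adjusted p = 2e-07). Between EZH2i and p53n it differed by 0.91 as counted and by -0.04 with the trend removed.

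Ephb4, the main receptor of ephrin-B2, was at 2.98, 3.75 and 3.07 CPM in p53n, 6.12, 7.08 and 7.0 in DMSO and 17.0, 20.3 and 18.6 in EZH2i. It rose in both comparisons with no overlap, by 1.05 ± 0.14 (adjusted p = 2e-06) and by 1.47 ± 0.13 (adjusted p = 1.9e-09), the second 0.75 with the trend removed and still called. Its mean in EZH2i was 5.71 times that in p53n. Ephb1, a receptor for ephrin-B ligands, was at 72, 77.9 and 66.9 CPM in p53n, 34.9, 35.3 and 34.5 in DMSO and 51.3, 64.6 and 52.0 in EZH2i. The loss of 1.05 ± 0.09 with PDGF-BB was followed by a rise of 0.68 ± 0.09 (0.45 with the trend removed), and the EZH2i libraries stayed below all p53n libraries. Ephb2 and Ephb3 moved less, by -0.24 and 0.37 with PDGF-BB and by 0.32 and 0.59 with the inhibitor.

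The Slit ligands were scarce throughout, with a summed level of 0.915, 0.666 and 1.07 CPM per kb in p53n, DMSO and EZH2i. Slit1 was at 2.15, 2.83 and 1.68 CPM in p53n, 1.16, 1.36 and 1.17 in DMSO and 2.81, 5.01 and 3.19 in EZH2i. DMSO was below both other groups, which overlapped at 1 library each. It fell by 0.85 ± 0.27 with PDGF-BB (adjusted p = 0.00891), a call that was lost without p53n library 2 (-0.63, adjusted p = 0.0706). With the inhibitor it rose by 1.56 ± 0.26 (adjusted p = 2.1e-05), and by 0.93 with the trend removed. Slit3 fell by 0.69 with PDGF-BB (adjusted p = 0.0224). Slit2, with the longest exon span of the members at 25.4 kb, changed by 0.14 with PDGF-BB and by -0.57 with the inhibitor, the latter 0.80 with the trend removed.

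Of the 4 Robo receptors 2 were tested. Robo2 fell in both comparisons as counted, and Robo1 fell with the inhibitor. Robo2 (chromosome 16, 73688727 to 74208713) was at 35.0, 45.3 and 41.0 CPM in p53n, 14.6, 14.4 and 14.3 in DMSO and 7.85, 6.55 and 6.52 in EZH2i, without overlap. The falls were 1.48 ± 0.10 (adjusted p = 8.8e-11) and 1.04 ± 0.12 (adjusted p = 1.2e-07), and the second turned to 0.46 with the trend removed (adjusted p = 0.00097). Robo1, its neighbour on the chromosome and the other broadly expressed Slit receptor of the brain, was at 47.3, 58.3 and 50.9 CPM in p53n, 46.3, 45.9 and 47.0 in DMSO and 25.4, 26.9 and 23.6 in EZH2i. With PDGF-BB its change of -0.17 ± 0.08 did not pass (adjusted p = 0.0839), although it passed at -0.20 with the size factors of DESeq2 and at -0.31 with upper quartile scaling. With the inhibitor it fell by 0.87 ± 0.09, or 0.28 with the trend removed, and was called under both. Robo1's share of the summed Robo level was 56.6% in p53n, 76.6% in DMSO and 78.1% in EZH2i.

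Among the netrins, Ntn4 and Ntng1 rose with PDGF-BB. Ntn4, a netrin of basement membranes, was at 8.92, 8.20 and 8.29 CPM in p53n, 22.2, 22.8 and 23.7 in DMSO and 22.8, 22.8 and 23.3 in EZH2i. The PDGF-BB groups overlapped each other and lay above p53n. The rise was 1.43 ± 0.10 (adjusted p = 4.1e-11), and the inhibitor change was 0.00 ± 0.09 as counted and -0.32 with the trend removed (adjusted p = 0.00194). Netrin-1 (Ntn1), the most abundant member of this class per length at 12.5, 12.2 and 17.2 CPM per kb, changed by -0.03 ± 0.08 with PDGF-BB (adjusted p = 0.73). With the inhibitor it rose by 0.49, or -0.08 with the trend removed. Ntn3 changed by 0.16 with PDGF-BB, which did not pass, and by 0.66 with the inhibitor, or -0.04 with the trend removed.

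The netrin-Gs are lipid-anchored relatives that bind NGL proteins instead of Dcc. Ntng1 was at 2.15, 2.04 and 2.65 CPM in p53n, 13, 11.5 and 13.1 in DMSO and 8.32, 10.2 and 10.7 in EZH2i. The groups did not overlap and p53n was lowest. It rose by 2.46 ± 0.15 with PDGF-BB (adjusted p = 1.2e-11). The inhibitor call, -0.37 ± 0.13 (adjusted p = 0.015), was lost without DMSO library 1 (-0.35, adjusted p = 0.0518), DMSO library 3 (-0.34, adjusted p = 0.0599) or EZH2i library 1 (-0.27, adjusted p = 0.0873), and was 0.20 with the trend removed. Ntng2 was at 6.14, 6.99 and 7.19 CPM in p53n, 3.08, 2.61 and 3.55 in DMSO and 5.83, 7.88 and 6.56 in EZH2i. The DMSO libraries lay below all others, and p53n and EZH2i overlapped. It fell by 1.14 ± 0.17 with PDGF-BB (adjusted p = 4.2e-06) and rose by 1.13 ± 0.17 with the inhibitor (0.34, adjusted p = 0.0934, with the trend removed), and 14% of its exon bases are shared with another gene.

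**Figure D3:**
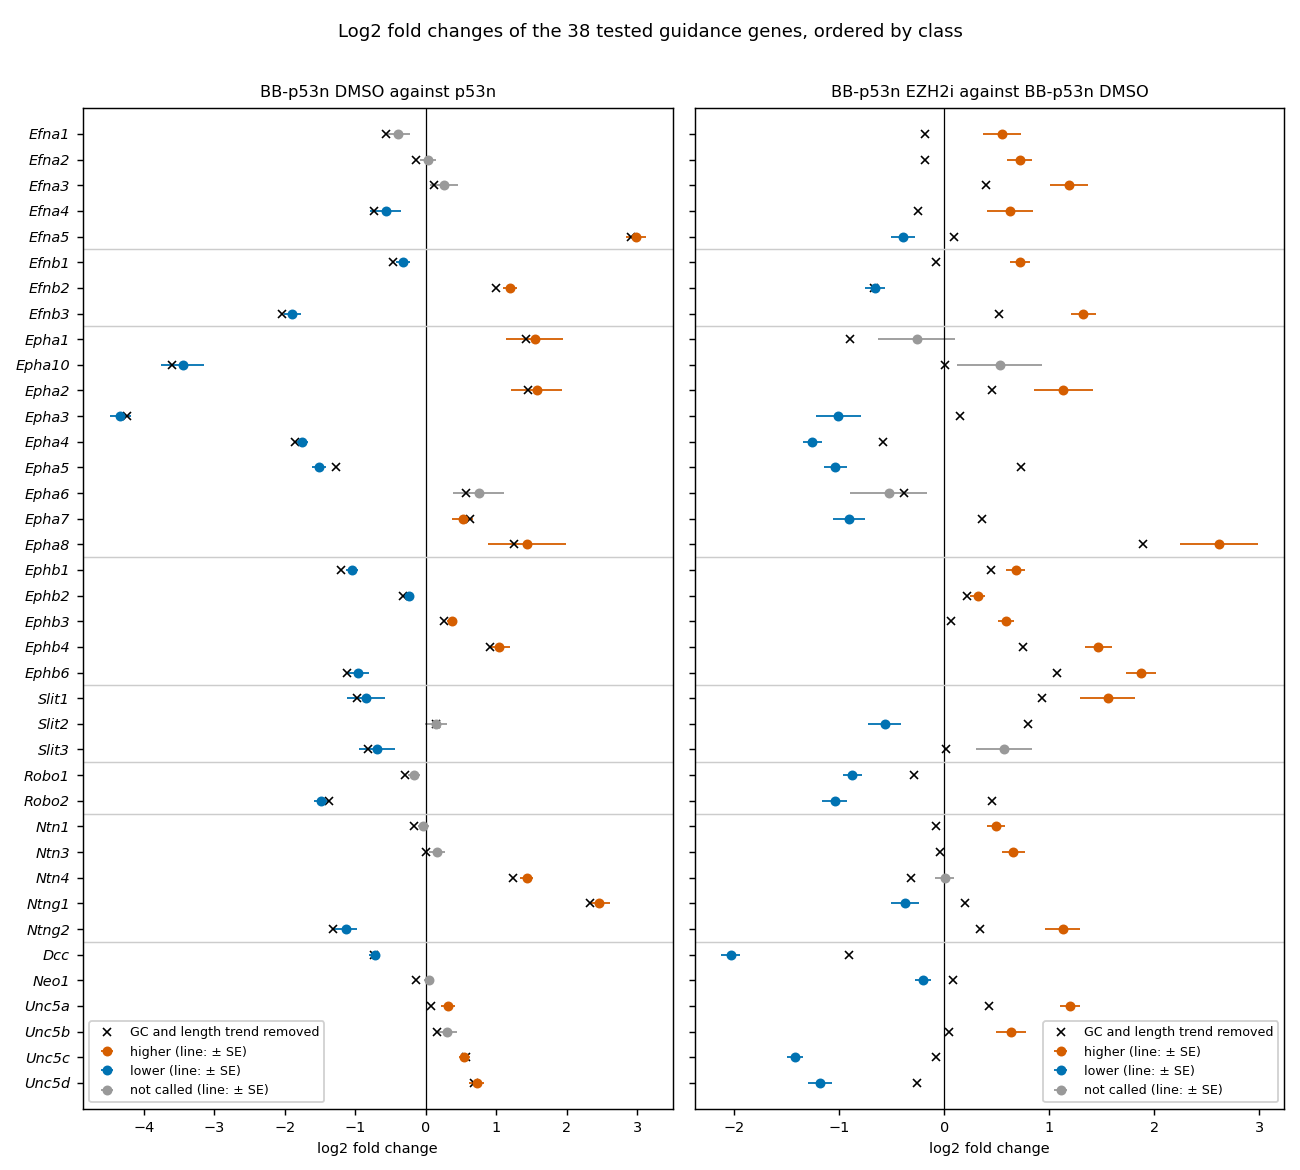
Log2 fold changes (x axis) of the 38 tested guidance genes, grouped by class from ephrin-A ligands at the top to netrin receptors at the bottom, for PDGF-BB on the left and EZH2 inhibition on the right. Circles with SE are values as counted, orange for higher, blue for lower and grey for not called, and crosses are values with the GC and length trend removed; on the left crosses lie close to circles, and on the right they lie nearer to 0 for most genes, and the calls of Epha5, Robo2, Slit2 and Epha7 turned.

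As counted, 2 of the 6 netrin receptors rose with the inhibitor and 4 fell, where 37.3% and 35.6% of all genes did. With the trend removed 1 rose and 1 fell, where 28.3% and 29.2% of all genes did. Dcc, the receptor through which netrin-1 attracts, was at 167, 187 and 168 CPM in p53n, 111, 102 and 103 in DMSO and 29.3, 23.0 and 24.4 in EZH2i. The groups descended without overlap. It fell by 0.73 ± 0.08 with PDGF-BB (adjusted p = 8.1e-08) and fell by 2.03 ± 0.09 with the inhibitor (adjusted p = 1.3e-13), a mean 4.11 times lower. With the trend removed the second fall was 0.91 (adjusted p = 1.6e-10), the largest called fall of the members under that setting. Per length Dcc went from 13.2 ± 0.85 CPM per kb in p53n to 7.98 ± 0.36 in DMSO and 1.94 ± 0.25 in EZH2i (SD, n = 3).

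Unc5 receptors, which turn netrin signals to repulsion, divided as counted: Unc5a and Unc5b rose with the inhibitor and Unc5c and Unc5d fell. With the trend removed only Unc5a was called. Unc5a (chromosome 13, 55097224 to 55153831) was at 16.4, 18.6 and 17.2 CPM in p53n, 20.8, 21.2 and 22.8 in DMSO and 43.2, 50.3 and 55.2 in EZH2i. It rose by 1.2 ± 0.10 with the inhibitor (adjusted p = 7.6e-10), or 0.43 with the trend removed (adjusted p = 0.0001). Its PDGF-BB rise of 0.31 was not called with upper quartile scaling (0.16) or with the trend removed (0.08). Per length and as counted, Unc5a stood below Dcc in p53n and DMSO and above it in EZH2i (11.9 ± 1.4 against 1.94 ± 0.25 CPM per kb, SD, n = 3).

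Unc5c was at 117, 126 and 110 CPM in p53n, 176, 166 and 176 in DMSO and 70.1, 58.8 and 63.7 in EZH2i. DMSO was highest and EZH2i lowest, without overlap. It rose by 0.55 ± 0.07 with PDGF-BB (adjusted p = 1.3e-06) and fell by 1.42 ± 0.08 with the inhibitor (adjusted p = 2.7e-12), a fall of 0.08 with the trend removed (adjusted p = 0.26). Unc5d was at 17.9, 13.5 and 15.4 CPM in p53n, 26.7, 26.6 and 23.9 in DMSO and 11.1, 12.1 and 10.8 in EZH2i, also highest in DMSO and without overlap. Its changes were 0.72 ± 0.11 and -1.18 ± 0.11, the second -0.26 and not called with the trend removed. Unc5b rose by 0.63 with the inhibitor, or 0.04 with the trend removed. Neo1, a receptor for netrins and for repulsive guidance molecules, had the highest per-length level of all members in each group, 25.6 ± 2.4, 26.3 ± 1.4 and 22.9 ± 1.0 CPM per kb (SD, n = 3), and its largest change was -0.20, not called with upper quartile scaling or with the trend removed.

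**Figure D4:**
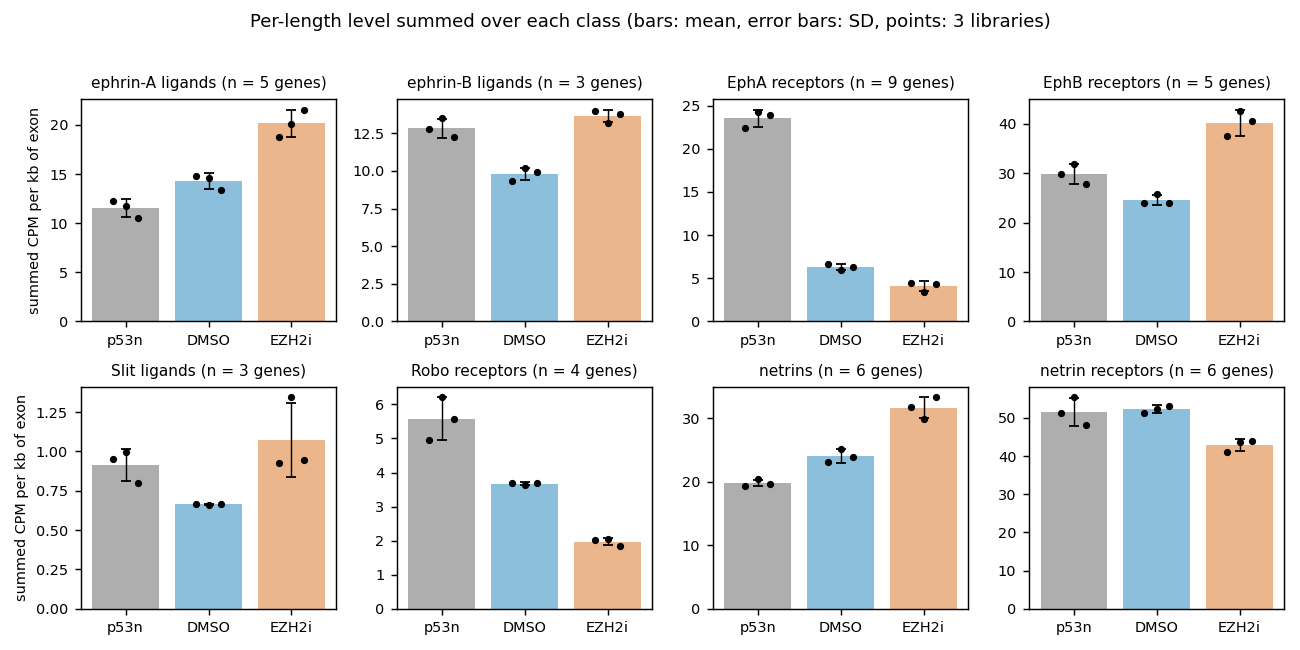
Summed level per exon length (CPM per kb of exon) of the 8 classes of guidance genes in the 3 groups; bars are means, error bars SD and points the 3 libraries of p53n, BB-p53n DMSO (DMSO) and BB-p53n EZH2i (EZH2i). EphA receptors drop from 23.5 to 6.33 and 4.08 and Robos from 5.58 to 3.67 and 1.97, while EphB receptors, ephrin-As and netrins are highest with EZH2i.

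As a sum over the class and as counted, ephrin-A RNA was higher and EphA RNA lower in each PDGF-BB group than in p53n. Summed ephrin-A RNA per length was 11.5 ± 0.90, 14.3 ± 0.80 and 20.1 ± 1.4 CPM per kb in p53n, DMSO and EZH2i, against EphA sums of 23.5, 6.33 and 4.08. Efna2 alone held 51.9%, 42.9% and 49.9% of the ephrin-A sum, and Efna5 reached 28.4% of it in DMSO. Summed netrins were at 19.8, 24.1 and 31.7 CPM per kb and netrin receptors at 51.6, 52.2 and 42.8. Robos were at 5.58, 3.67 and 1.97. Ephrin-Bs were lowest in DMSO, at 12.8, 9.81 and 13.6. These sums are of levels as counted, and sums with the trend removed were not computed.

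Ordered by level per length in p53n, Neo1 stood first, followed by Dcc and Ntn1, whose libraries overlapped, and by Ephb1, Epha4, Ephb2 and Epha3, each overlapping the next. In DMSO the order was Neo1, Ntn1, then Unc5c and Ephb3, which overlapped, and Dcc and Ephb2, which overlapped. In EZH2i it was Neo1, Ntn1, then Ephb3, Unc5a, Efna2 and Ephb2, each overlapping the next. Epha3 and Epha4 thus left the 10 highest members in DMSO, and Unc5c and Dcc left them in EZH2i.

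In the PDGF-BB and the inhibitor comparison together, 5 members fell in both as counted (Dcc, Epha3, Epha4, Epha5 and Robo2), or 13.2% against 13.8% of all genes. Another 5 rose in both (Epha2, Epha8, Ephb3, Ephb4 and Unc5a), or 13.2% against 16.7%. A set of 8 fell with PDGF-BB and rose with the inhibitor (Efna4, Efnb1, Efnb3, Ephb1, Ephb2, Ephb6, Ntng2 and Slit1), or 21.1% against 10.1%, and 6 did the reverse (Efna5, Efnb2, Epha7, Ntng1, Unc5c and Unc5d), or 15.8% against 11.8%. With the trend removed Dcc, Epha4 and Robo1 fell in both, or 7.89% against 11.6% of all genes. Epha7 and Ephb4 then rose in both, or 5.26% against 10.9%. Under that setting 7 members fell and then rose (Efnb3, Epha5, Ephb1, Ephb2, Ephb6, Robo2 and Slit1), or 18.4% against 10.3% of all genes. Efnb2, Epha1 and Ntn4 did the reverse, or 7.89% against 10.2%. Since the DMSO libraries enter both comparisons, a library value that is high or low by chance there pushes the 2 changes in opposite directions, and these counts are a description. Epha6 alone of the tested members passed in neither.

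Against p53n, the EZH2i cells differed in 32 of the 38 tested members, 18 higher and 14 lower, where 82% of all genes differed, 40.3% higher and 41.7% lower. Groups did not overlap for 28 members, against 82.2% of all genes. Epha3 was lower by 5.34 ± 0.18, Epha4 by 3.01 ± 0.09 and Dcc by 2.76 ± 0.09 on the log2 scale. Efna5 was higher by 2.59 ± 0.14, Ephb4 by 2.51 ± 0.14 and Ntng1 by 2.09 ± 0.16. Removing the trend left 14 higher and 16 lower, while 34.9% of all genes were then higher and 43.2% lower. Of the members' 32 calls 7 turned to the opposite direction, as did 1346 of 13939 calls over all genes. The 6 genes just named kept their directions (-4.09, -2.43, -1.64, 3.01, 1.66 and 2.53). Unc5c and Unc5d were lower by 0.87 and 0.46 as counted and turned to 0.50 and 0.43 with the trend removed.

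The signal transducers that Eph, Robo and netrin receptors use inside the cell were read from a list of 40 genes, all tested. With PDGF-BB 29 changed, 17 upward and 12 downward, against 69.3% of all genes, 35.3% upward and 34% downward. Srgap2, a GTPase-activating protein that binds Robo1, rose from 84.6 ± 6.7 to 290 ± 5.7 CPM (SD, n = 3), and Nck2, an adaptor of Eph receptors and Dcc, from 10.6 ± 0.59 to 36.4 ± 0.93, both by 1.78 on the log2 scale. The Src-family kinase Yes1 fell by 2.36 ± 0.23 and the Rac and Cdc42 effector kinase Pak3 by 0.98 ± 0.16. With the inhibitor 37 changed, 14 upward and 23 downward, and with the trend removed 35 changed, 16 upward and 19 downward. Of all genes 72.9% changed as counted, 37.3% upward and 35.6% downward. With the trend removed 57.4% of all genes changed, 28.3% upward and 29.2% downward. Ngef (ephexin-1), the exchange factor that couples EphA receptors to RhoA, rose by 1.11 (0.45 with the trend removed), and Rgs3, which binds ephrin-B tails, by 1.05 (0.94). Rock1 and Rock2, the kinases below RhoA, fell by 2.12 and 2.06, and by 0.34 and 0.58 with the trend removed.

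Extracellular partners, coreceptors, proteases and other modifiers were read from a list of 27 genes, all tested. With PDGF-BB 22 changed, 11 in each direction. Draxin, a secreted protein that binds Dcc and netrins, was at 129, 117 and 103 CPM in p53n, 4.45, 5.09 and 5.30 in DMSO and 9.83, 11 and 9.85 in EZH2i, a fall of 4.55 ± 0.11 on the log2 scale (adjusted p = 3.8e-18). The cytosolic phosphatase Acp1, which dephosphorylates Eph receptors, fell by 2.42 ± 0.12. The proteoglycan Sdc1 rose by 2.34 ± 0.09 and Flrt3, a ligand of Unc5 receptors and partner of Robo1, by 0.56 ± 0.09. With the inhibitor 24 changed, 13 upward and 11 downward, and with the trend removed 21 changed, 7 upward and 14 downward. Gpc1, a proteoglycan that binds Slit, rose by 1.16 (0.47 with the trend removed) and Ndp by 1.08 (1.19), while the Unc5 ligand Flrt2 fell by 2.02 (0.89) and Adam10, the protease that cleaves ephrin-Eph complexes, by 1.40 (0.53). Beside the backgrounds of 69.3% and 72.9%, the 2 lists together had 51 and 61 of 67 genes called. For the inhibitor with the trend removed it was 56 of 67, beside 57.4% of all genes.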

How the data were processed

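The authors deposited raw counts of fragments for each gene, without normalization, in a single table. Per the file headers, read pairs over exons were counted with featureCounts 1.6.3 (mapping quality of 20 or more; annotation Ensembl release 108, GRCm39) and no strand setting. The submitters' processing notes name Trimmomatic and Subread; how they were set is not given in the sources used here. Exon lengths and coordinates are those of the deposited table. Symbols and transcript GC content (longest transcript) were joined from GENCODE vM21 by gene identifier, with 52073 of 56980 matched.

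Genes were kept with filterByExpr and scaled with TMM, and 1 quasi-likelihood model over all 9 libraries was fitted with the group as its term (edgeR 4.0.16, R 4.3.3, robust estimation), with p-values adjusted by Benjamini and Hochberg over 17001 genes. In a library 3 counts correspond to 0.0868 to 0.154 CPM. The main test was run on simulated counts in which a small part of the genes changed. The trend removal was run on simulated counts with a planted GC slope and no length slope. In the real data most genes changed, so these runs do not check the calls given here. Alternatives were DESeq2 1.42.0, other scalings and filters, a test against 1.5-fold, a replicate block and leaving out each library.

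The members and lists were chosen with earlier results of these data known. Members are given with every library's value when a comparison called a change of at least 2-fold and the average log2 CPM was at least 1; others are named where the text turns on them. From the lists of partner genes, the 2 largest called rises and falls at that level were named in each of the first comparisons. Libraries of 1 group differed by more than sampling noise, so none was merged with another.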

Additional observations from a re-analysis of the deposited data

How the results depend on the processing

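Over the 20 members given by library, 3 comparisons and 20 alternatives, 1141 of 1200 values kept direction and side of the threshold, 30 lost the call, 9 gained it and 20 reversed. These members were chosen by a called change of at least 2-fold in the main fit, which favours agreement in advance. All reversals came with the GC and length trend removed. In EZH2i against DMSO the reversed values were 0.10 for Efna5, 0.15 for Epha3 (0.17 with the replicate block added), 0.73 for Epha5, -0.32 for Ntn4, 0.20 for Ntng1 and 0.46 for Robo2. In EZH2i against p53n they were -0.04 for Ephb6, -0.05 for Slit1, 0.50 for Unc5c and 0.43 for Unc5d. That setting left 18 members called in EZH2i against DMSO, 12 higher and 6 lower, and 17, 12 and 5 with the replicate block added. The cause was not tested.

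Against a null of 1.5-fold (glmTreat), 17 of 38 members (7 higher) and 5978 of 17001 genes were called for PDGF-BB. For the inhibitor 18 of 38 members (9 higher and 9 lower) and 6973 of 17001 genes were called. In EZH2i against p53n 8 of 38 members and 5405 of 17001 genes were lower. This null asks for a larger change by construction. Same-numbered libraries correlated from -0.217 to 0.353 in their deviations from the group means. Of the libraries, 0 of 9 correlated best with their own number in both other groups. Between DMSO and EZH2i the values were 0.353, 0.280 and -0.0076 for numbers 1, 2 and 3. The count of best matches does not test a pairing of these groups alone. With the replicate block the members called were 28, 33 and 32, as without it, and it changed no call of the members given by library. Leaving out 1 library gave 25 to 30, 31 to 33 and 29 to 31 members called. Slit1 in EZH2i against p53n lost its call without p53n library 3 (0.57, adjusted p = 0.0686) or EZH2i library 2 (0.46, adjusted p = 0.104). Depth limits Robo3, Robo4, Ntn5, Epha8 and Epha1 most.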
